A study of Mus musculus with 11 samples.

Results

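The endoplasmic reticulum (ER) folding and stress genes of mouse epididymal white adipose tissue (eWAT) were examined as a set of 41 listed genes: ER chaperones, co-chaperones, disulfide enzymes, genes of ER-associated degradation (ERAD), sensors and transcription factors of the unfolded protein response (UPR), outputs of the PERK branch, and subunits of the translocon and its associated complex. Members were taken by symbol, and 40 of the 41 were found among the 15453 genes of the table. Manf, a secreted UPR factor, was not analysed here. MEST, the product of the gene inactivated in these mice, is itself an ER protein, and the comparison asks whether its loss goes with a difference in the 3 branches of the stress response.

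eWAT was taken from 6 wildtype (WT) mice and from 5 mice labelled Mest+/- with a paternal knockout (pKO), all C57BL/6, 16 weeks old and fed a high fat diet from 8 weeks of age. Both genotypes came from WT females bred to males heterozygous for an allele lacking exon 3. Because imprinting silences the copy of Mest inherited from the mother, a mouse that receives the deleted allele from its father has little Mest transcript. The deletion was made with a Cre active in oocytes and early embryos and was therefore carried by the whole body, not by adipocytes alone, and the sequenced mice were selected from a larger diet cohort. The study reported a higher adiposity index in the sequenced WT mice than in the sequenced pKO mice after the diet. Genotype and adiposity therefore cannot be told apart in the comparisons below.

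Proteins that are secreted or sit in membranes enter the ER through the translocon, fold with the help of chaperones such as HSPA5 (BiP) and of the calnexin and calreticulin lectins, and gain disulfide bonds from the protein disulfide isomerases. When unfolded proteins accumulate, 3 sensors respond. IRE1 (Ern1) splices the Xbp1 transcript, ATF6 is cleaved to release a transcription factor, and PERK (Eif2ak3) phosphorylates eIF2alpha, which slows translation and favours ATF4. XBP1 and ATF6 act largely on chaperone and ERAD genes, and ATF4 on amino acid and stress genes such as Asns, Trib3, Chac1 and Ddit3. In adipose tissue the ER also carries much of lipid synthesis, and obesity is known to engage the UPR.

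Expression was read by SAGE (serial analysis of gene expression). A transcript gives a short tag at its last NlaIII site before the 3' end. One tag stands for 1 transcript whatever its length, so values need no correction for length. Transcripts that lack a usable site are missed, and how evenly the others yield tags was not tested. Values are called normalized tags below, each library having been scaled by its own factor. The WT libraries held 9659740 to 14825727 tags, and those of pKO mice 11320342 to 14626803. In pKO replicates 1 and 5, genes strayed furthest from their medians, with an SD of the log2 deviation of 0.583 and 0.564, against 0.267 to 0.459 in the other 9 mice. Mest itself lay between 20756 and 27897 normalized tags in WT mice (median 26018) and at 1479, 793, 1978, 2275 and 1792 in pKO replicates 1 to 5. Mest (chr6:30733506-30748466, GRCm38.p6) fell by 3.99 on the log2 scale (SE 0.22, limma adjusted p = 1.2e-06), which is 15.1-fold by the means. A 3' tag does not cover the deleted exon, so this is a measure of transcript level and not of the deletion.

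Promoter letters known to be bound in the UPR are shown first, because they describe the members independently of the measured values. Only exact matches were counted, so they do not sort all members by regulator. The ER stress element (ERSE, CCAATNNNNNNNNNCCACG) and ERSE-II (ATTGGNCCACG) are recognised by ATF6 and XBP1 with NF-Y, the UPR element (UPRE, core TGACGTG) by XBP1 or ATF6, and the C/EBP-ATF response element (CARE, TGATGNAA) by ATF4. Each was searched on both strands from 250 bases before to 50 bases after the start of the gene, in RefSeq promoters of GRCm38.p6, which were found for 35 of the 40 members. ERSE and ERSE-II share their last 5 letters but have different spacing. The lines below are written 5' to 3' in the direction of the gene, and capitals mark the fixed letters of a match or of its reverse complement.
Hspa5 (chr2:34771923-34772053, + strand, UPRE then ERSE): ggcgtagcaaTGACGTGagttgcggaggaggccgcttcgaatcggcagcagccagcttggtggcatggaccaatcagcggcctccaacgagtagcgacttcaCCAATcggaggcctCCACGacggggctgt
Hsp90b1 (chr10:86705523-86705666, - strand, ERSE on each strand): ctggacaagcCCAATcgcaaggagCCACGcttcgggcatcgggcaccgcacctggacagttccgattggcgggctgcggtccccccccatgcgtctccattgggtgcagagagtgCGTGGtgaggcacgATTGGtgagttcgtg
Calr (chr8:84847065-84847103, - strand, ERSE): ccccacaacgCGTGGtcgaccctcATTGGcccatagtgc
Canx (chr11:50325790-50325828, - strand, ERSE): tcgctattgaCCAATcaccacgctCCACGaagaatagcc
Pdia6 (chr12:17266481-17266519, + strand, ERSE): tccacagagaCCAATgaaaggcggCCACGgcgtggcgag
Herpud1 (chr8:94386307-94386397, + strand, CARE then ERSE-II): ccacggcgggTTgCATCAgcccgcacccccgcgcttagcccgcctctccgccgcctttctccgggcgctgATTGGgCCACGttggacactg
Chac1 (chr2:119351039-119351066, + strand, CARE): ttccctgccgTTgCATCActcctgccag
Asns (chr6:7693215-7693242, - strand, CARE): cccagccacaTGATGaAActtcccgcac

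ERSE was present in 10 of the 35 member promoters (28.6%), namely Hspa5, Hsp90b1, Calr, Canx, Dnajc3, Pdia6, Ero1lb, Creld2, Syvn1 and Derl3, and in 0.137% of 27025 genes. ERSE-II was found in Dnajb11 and Herpud1 (0.0444% of genes), the UPRE core in Hspa5 (2.22% of genes), and CARE in Herpud1, Trib3, Chac1 and Asns (4.51% of genes). A match is a description of the letters and not evidence of binding in this tissue. Of the 10 members with ERSE, 1 (Calr) differed between genotypes at an unadjusted limma p of at most 0.05, against 9.55% of all genes by the same rule, and the log2 differences ran from -0.76 to 0.26 with a median of -0.14.

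Few ER folding and stress genes differed between genotypes. Calr, P4hb and Pdia3, all of them folding factors of the ER lumen, were lower in pKO eWAT at an unadjusted limma p of at most 0.05, no member was higher at that level by limma, limma-voom, edgeR or DESeq2, and no member reached an adjusted p of 0.1. Over all 15453 genes, 5.35% were lower and 4.2% higher by the unadjusted rule, so 3 of 40 members lower (7.5%) is close to the background, and 0.0324% of genes passed the adjusted rule. The adjusted count of 0 from limma was also 0 by limma-voom and by edgeR, and 1 by DESeq2, where Calr passed. DESeq2 called more genes over the whole table at that threshold, 75 lower and 63 higher. The median log2 difference of the members, pKO minus WT, was -0.11, and 30 of 40 (75.0%) were below 0, against a median of -0.00 and 50.4% below 0 over all genes. The mice are shared by all members, so this share is a description. Leaving out 1 mouse at a time gave 2 to 7 members lower. There were 5 without WT replicate 4, WT replicate 6 or pKO replicate 1, where 5.08%, 4.89% and 6.17% of all genes were lower by the same fit, 6 without pKO replicate 2 (7.33% of all genes) and 7 without pKO replicate 4 (6.01%). Leaving out both pKO replicates 1 and 5 gave 4 lower (Calr, Canx, P4hb and Pdia3, with 5.16% of all genes) and 1 higher (Asns). In that fit 546 of the 15453 genes were higher. In whole tissue, fewer cells of a type and less RNA per cell cannot be told apart.

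**Figure D1:**
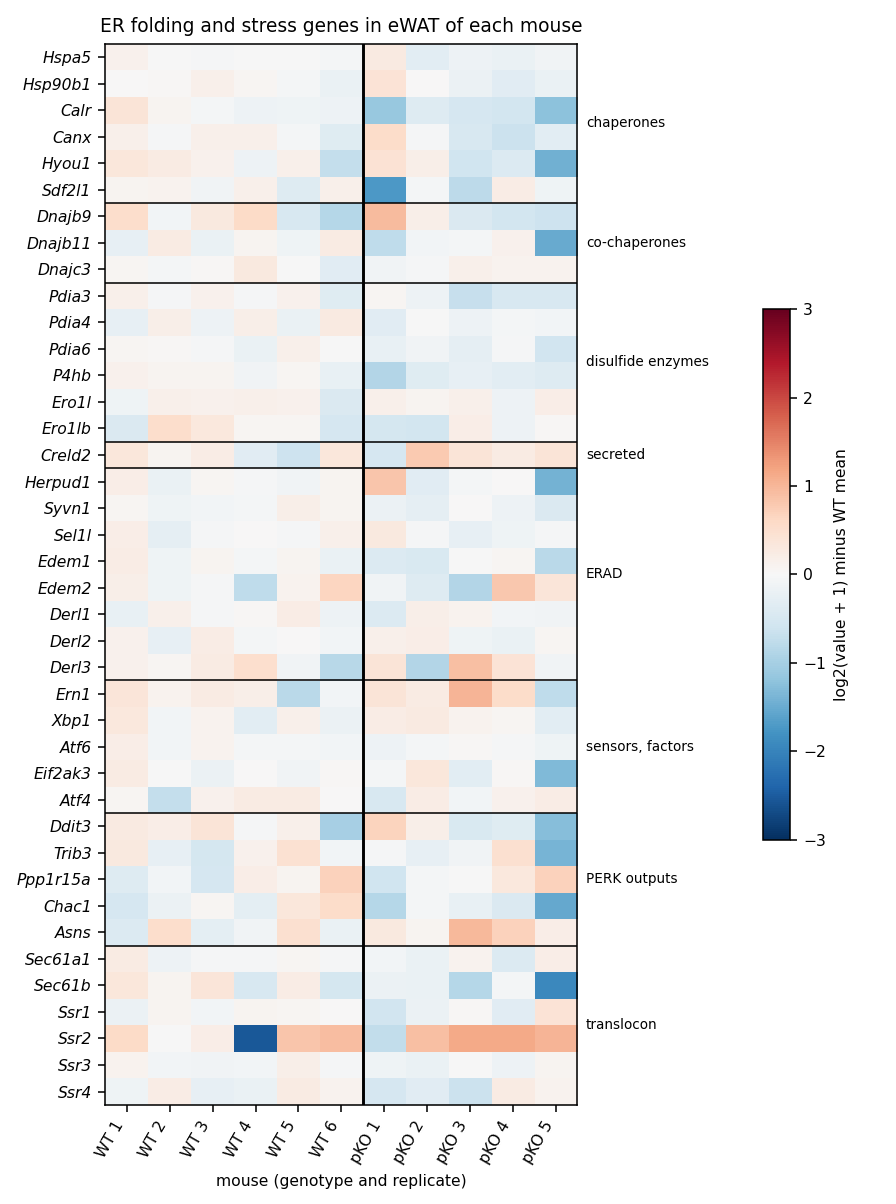
Heatmap of the 40 genes by role (rows) in each mouse (columns), coloured by log2(value + 1) minus the mean of the 6 WT mice, with a line between WT and pKO. Calr and P4hb are blue in all 5 pKO mice, and pKO replicates 1 and 5 hold the deepest colours in many other genes, in both directions.

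Calreticulin (Calr), the soluble lectin chaperone that retains glycoproteins until they are folded and binds ER calcium, lay between 888 and 1297 normalized tags in WT mice (median 932). In pKO replicates 1 to 5 the values were 447, 761, 701, 680 and 419. Every pKO mouse was below every WT mouse, and pKO replicates 1 and 5 were the lowest. The WT mean was 998 ± 158 (SD, n = 6), and the pKO mean, 601 ± 157 (SD, n = 5), was 39.7% lower. The log2 difference was -0.76 (SE 0.18), with an unadjusted limma p of 8.4e-04, an adjusted p of 0.268 and an exact permutation p of 0.00216, the smallest that 6 against 5 mice can give. Calr (chr8:84842088-84846931, GRCm38.p6) kept an unadjusted p of at most 0.05 in all 24 alternatives, and its log2 difference was -0.47 without pKO replicates 1 and 5.

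P4hb, the classical protein disulfide isomerase and a subunit of prolyl 4-hydroxylase, the enzyme that modifies collagen, was between 3615 and 4633 normalized tags in WT mice (median 4455). It was at 2316, 3297, 3605, 3396 and 3232 in pKO replicates 1 to 5. The groups did not overlap, although the highest pKO mouse and the lowest WT mouse were almost level. Means were 4267 ± 400 (SD, n = 6) and 3169 ± 497 (SD, n = 5), 25.7% lower in pKO. The log2 difference of P4hb (chr11:120560298-120573253) was -0.44 (SE 0.13), with an unadjusted limma p of 0.0053, an adjusted p of 0.37 and an exact permutation p of 0.00433. It was -0.31 without pKO replicates 1 and 5, and the unadjusted p was at most 0.05 in all 24 alternatives.

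Pdia3 (ERp57), the disulfide isomerase that works on glycoproteins together with calreticulin and calnexin, was between 821 and 1170 normalized tags in WT mice (median 1090) and at 1104, 949, 653, 749 and 756 in pKO replicates 1 to 5. The groups overlapped, with pKO replicate 1 among the WT values and 3 pKO mice below all WT mice. The log2 difference of Pdia3 (chr2:121413902-121438687) was -0.35 (SE 0.15), with an unadjusted limma p of 0.0398, an adjusted p of 0.506 and an exact permutation p of 0.0498. The unadjusted p was at most 0.05 in 15 of 24 alternatives. It was above 0.05 when any of WT replicates 1 to 5 or pKO replicates 3, 4 or 5 was left out, where the log2 difference lay between -0.35 and -0.26.

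Of all 40 members, Calr and P4hb were the 2 whose pKO range lay wholly below the WT range, a pattern shown by 0.673% of all genes. No member had its pKO range wholly above, against 0.569% of all genes. The other disulfide enzymes were not past the test. Pdia6 had a log2 difference of -0.25 (limma p = 0.0598, exact permutation p = 0.0238), Pdia4 of -0.13, Ero1lb of -0.20 and Ero1l, the oxidase that recharges the isomerases, of 0.09. Summed over the 6 disulfide enzymes, WT mice held 6800 to 8308 normalized tags and pKO mice 5772 to 6716, which do not overlap. P4hb, whose own groups did not overlap, is the largest part of that sum, so the gap does not show a separation of the other enzymes.

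The major chaperones other than Calr did not differ by the test. Hspa5 (BiP), the HSP70 chaperone of the lumen and the usual readout of the UPR, had the highest tag values of the members. It was at 10938 to 12303 normalized tags in WT mice (median 11176) and at 13680, 9064, 10199, 9882 and 10475 in pKO replicates 1 to 5. Every pKO mouse but replicate 1 was below all WT mice, and replicate 1 was above all of them. The log2 difference of Hspa5 was -0.10 with a 95% interval of -0.36 to 0.16 and an adjusted limma p of 0.838. Its coefficient of variation was 4.41% in WT and 16.6% in pKO mice. Hsp90b1 (GRP94) was at 7096 to 9066 in WT mice (median 8280) and at 10914, 8162, 7177, 6408 and 7089 in pKO mice. Its log2 difference was -0.06 with a 95% interval of -0.37 to 0.24. Canx, the membrane-bound partner of calreticulin, was also highest in pKO replicate 1, at 8934, and had a log2 difference of -0.18 (95% interval -0.60 to 0.23). Hyou1 (-0.37) and Sdf2l1 (-0.50) completed the group, and all 6 chaperones had a negative difference, 1 of them past the unadjusted test.

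**Figure D2:**
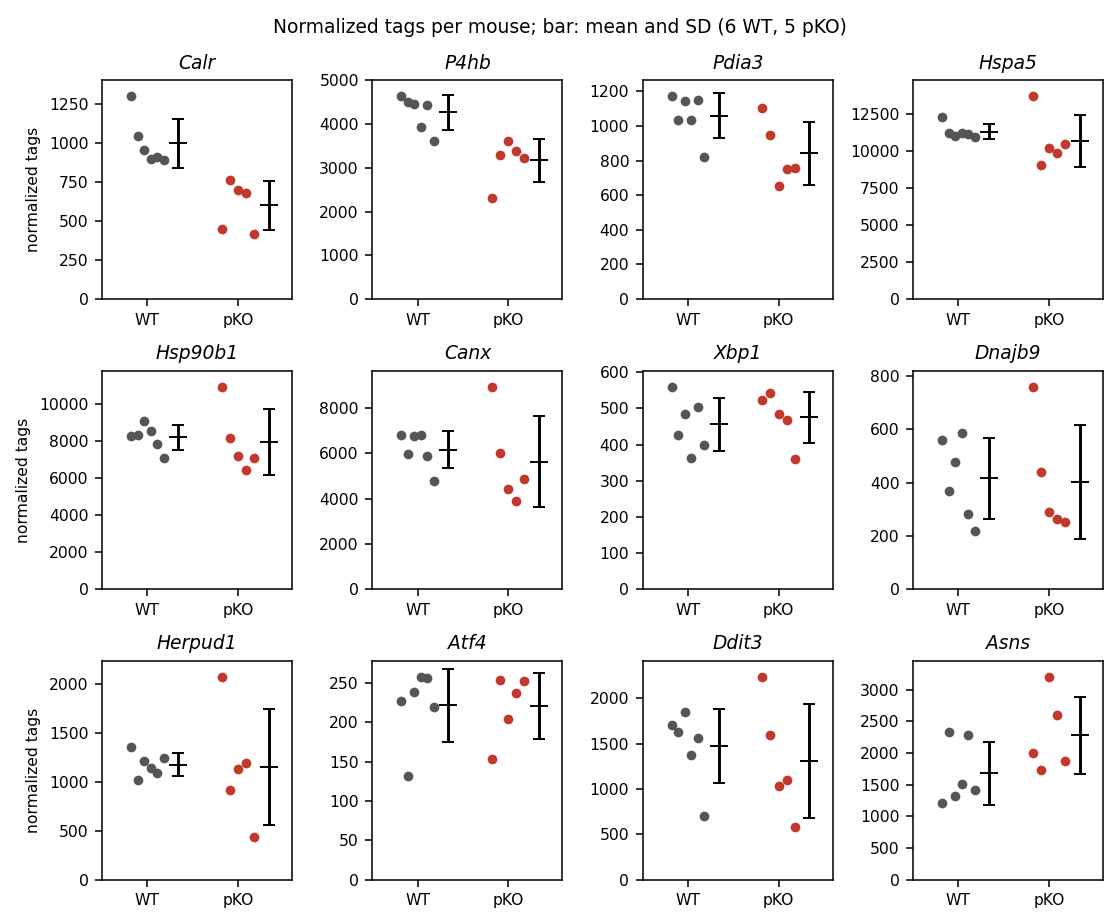
Normalized tags (y axis, from 0) of 12 genes in each mouse (grey, 6 WT; red, 5 pKO, replicates from left to right), with the mean and SD at the right of each group. Calr and P4hb are separated between genotypes, whereas the highest pKO point of Hspa5, Hsp90b1, Canx, Dnajb9, Herpud1 and Ddit3 is in each case pKO replicate 1.

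For the IRE1 branch, the sensor Ern1 was near the low end of the table, at 3.86 to 10.05 normalized tags in WT mice (median 8.46) and at 10.3, 9.17, 16.3, 11.5 and 4.09 in pKO replicates 1 to 5. Xbp1, whose spliced form is not distinguished by a 3' tag, was at 363 to 560 in WT mice (median 455) and at 523, 542, 485, 469 and 360 in pKO mice. The pKO values of Xbp1 lay within or close to the WT range, while 3 of the 5 pKO mice were above all WT mice for Ern1, with log2 differences of 0.29 (95% interval -0.44 to 1.01) for Ern1 and 0.06 (-0.26 to 0.38) for Xbp1. Dnajb9 (ERdj4), a co-chaperone induced through XBP1, ranged from 217 to 586 in WT mice (median 424) and was at 760, 441, 289, 265 and 252 in pKO mice. WT mice alone differed 36.3% by coefficient of variation for Dnajb9, and the log2 difference was -0.10 (-0.79 to 0.59). Of the other co-chaperones, Dnajb11 had a log2 difference of -0.45 and Dnajc3 (P58IPK, an inhibitor of PERK) of 0.04, neither past the test.

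For the ATF6 branch and ERAD, Atf6 was steady at 513 to 623 normalized tags in WT mice (median 522) and at 489, 527, 560, 537 and 501 in pKO mice, with a log2 difference of -0.06 (95% interval -0.29 to 0.17). Herpud1, an ERAD scaffold induced by ER stress, was at 1016 to 1350 in WT mice (median 1176) and at 2071, 918, 1131, 1189 and 440 in pKO replicates 1 to 5. Both the highest and the lowest value of the 11 mice were thus pKO mice, and the log2 difference of Herpud1 was -0.19 (-0.81 to 0.42). It was 0.11 without pKO replicate 5 and -0.45 without pKO replicate 1. Among the 8 ERAD members none passed the unadjusted test. Edem1, a lectin that directs misfolded glycoproteins to degradation, came closest at -0.33 (limma p = 0.0574, exact permutation p = 0.0736). Syvn1 (HRD1), the ubiquitin ligase of ERAD, was at -0.20 (limma p = 0.147, exact permutation p = 0.0346), Sel1l at -0.03, Edem2 at -0.04, Derl1 at -0.06, Derl2 at 0.02 and Derl3 at 0.15. Creld2, a secreted factor with disulfide isomerase activity, was at 0.26.

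For the PERK branch, Eif2ak3 was at 152 to 203 normalized tags in WT mice (median 171) and at 164, 218, 137, 175 and 67.5 in pKO replicates 1 to 5. Atf4 was at 132 to 257 in WT mice (median 232) and at 154, 253, 205, 237 and 252 in pKO mice. Log2 differences were -0.27 (95% interval -0.79 to 0.25) for Eif2ak3, where pKO replicate 5 stood lowest, and -0.00 (-0.42 to 0.42) for Atf4. ATF4 is controlled mainly by translation, which tags do not measure. Ddit3 (CHOP), the pro-apoptotic factor of the branch, was at 701 to 1852 in WT mice (median 1596) and at 2234, 1594, 1029, 1098 and 579 in pKO mice. Trib3, a pseudokinase that inhibits ATF4 and AKT, was at 123 to 243 in WT mice (median 182) and at 175, 150, 165, 247 and 67.5 in pKO mice. Their log2 differences were -0.25 (-0.93 to 0.43) and -0.26 (-0.87 to 0.35), and the groups overlapped for both. Without pKO replicate 5, the lowest mouse for either gene, they were 0.01 for Ddit3 and 0.02 for Trib3. Without the highest pKO mouse of each gene they were -0.48 for Ddit3 (replicate 1 left out) and -0.44 for Trib3 (replicate 4 left out).

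Chac1 and Asns, a pair of ATF4 targets with CARE letters in the windows printed above, had differences of opposite sign. Chac1, which degrades glutathione, was low, at 20.1 to 42.7 normalized tags in WT mice (median 27.8) and at 15.5, 27.5, 24.4, 21.2 and 9.21 in pKO mice. Its log2 difference was -0.62 (SE 0.29, limma p = 0.051, exact permutation p = 0.0671). Asns, the enzyme that makes asparagine, was at 1211 to 2336 in WT mice (median 1462) and at 2000, 1727, 3203, 2602 and 1869 in pKO mice. All 5 pKO mice were above the WT median, but the groups overlapped, and the log2 difference was 0.45 (SE 0.21, limma p = 0.0524, exact permutation p = 0.0909). Ppp1r15a (GADD34), the phosphatase subunit that restores translation, was at 38.5 to 89.0 in WT mice (median 55.0) and at 36.1, 52.7, 54.9, 68.8 and 90.1 in pKO mice, a log2 difference of 0.07. The unadjusted p of Chac1 was at most 0.05 in 9 of 22 alternatives and that of Asns in 5 of 24.

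Among translocon genes none passed the unadjusted test. Sec61b, a subunit of the channel, had a log2 difference of -0.64 (limma p = 0.0584, exact permutation p = 0.0931), and pKO replicate 5 was lowest at 363 normalized tags. Ssr2, a subunit of the translocon-associated complex, varied most among WT mice of all members with a WT mean of at least 50. It was at 30.1 to 343 in WT mice (median 236) and at 107, 333, 396, 393 and 365 in pKO mice, a log2 difference of 0.69 with a 95% interval of -0.50 to 1.88. It was 0.18 without WT replicate 4, the mouse at 30.1, and 1.05 without pKO replicate 1. The remaining subunits were close together, with Sec61a1 at -0.08, Ssr1 at -0.13, Ssr3 at -0.08 and Ssr4 at -0.24.

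**Figure D3:**
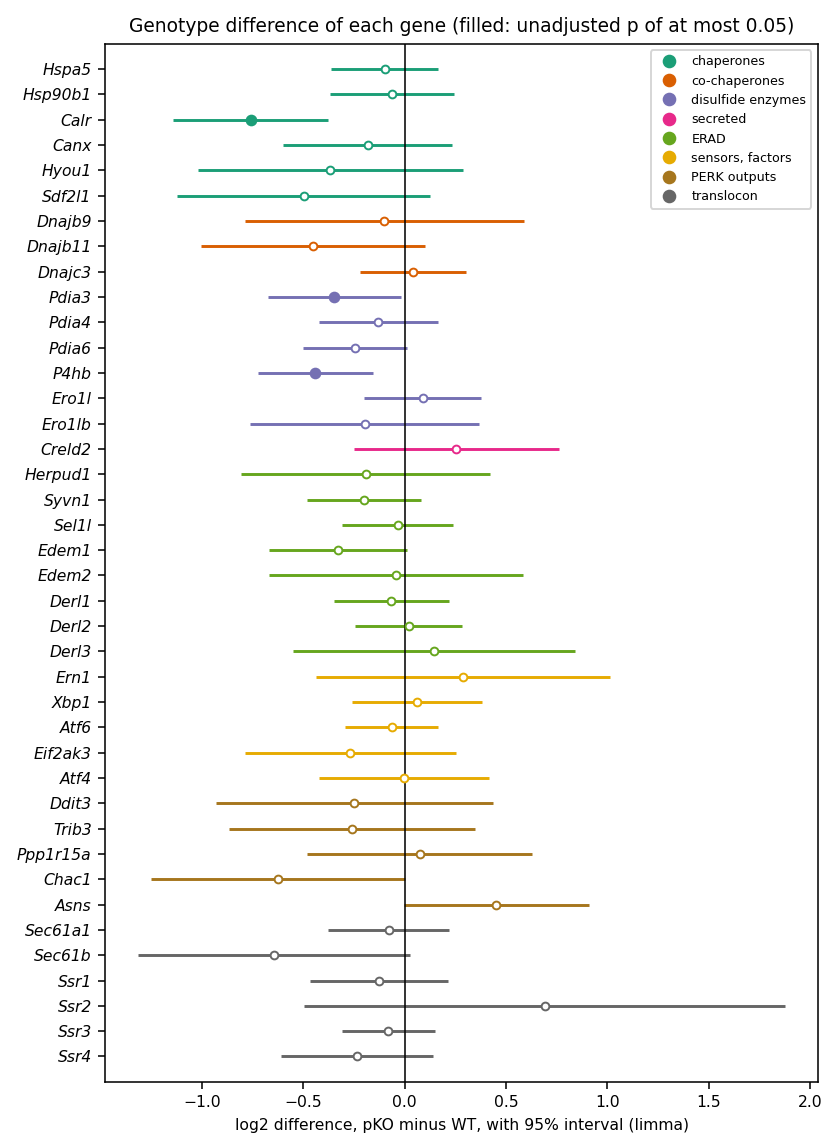
Log2 difference, pKO minus WT, of each gene with its 95% interval from limma, coloured by role. Filled points (Calr, P4hb, Pdia3) have an unadjusted p of at most 0.05, and all others have intervals that include 0.

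The spread between mice is given beside that of all genes. The SD of log2 values was larger in pKO than in WT mice for 31 of 40 members (77.5%), against 67.9% of all genes. Among the 36 members with a mean of at least 50 normalized tags, pKO replicate 1 was the highest or lowest of the 11 mice for 15 (41.7%), close to its 40.1% over 9727 genes. It was highest for 8, among them Hspa5, Hsp90b1, Canx, Dnajb9, Herpud1 and Ddit3, and lowest for 7, among them P4hb and Sdf2l1. Replicate 5 of pKO was an extreme for 15 members as well (41.7%, against 29.8% of all genes), and was the lowest for 12 of them (33.3%, against 16.4%), including Calr, Herpud1, Eif2ak3, Ddit3, Trib3, Sec61b and Edem1. These shares come from 2 mice and carry no test.

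**Figure D4:**
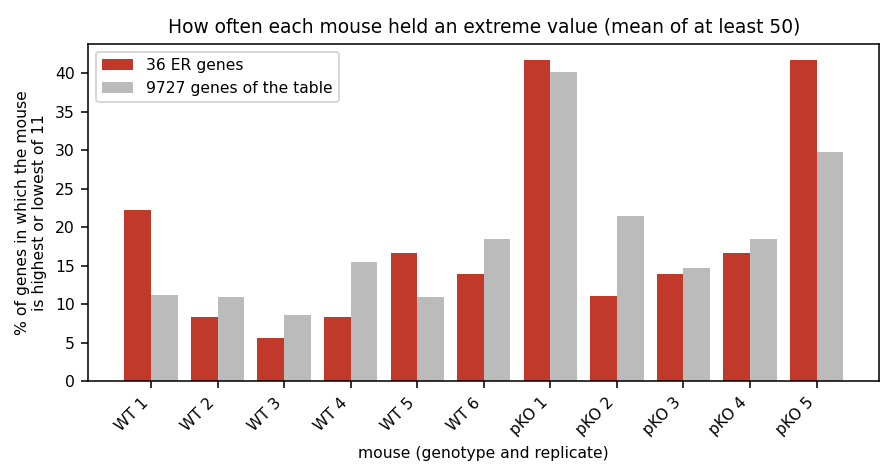
Share of genes (y axis, percent) for which each mouse held the highest or lowest value of the 11, among ER genes with a mean of at least 50 (red) and all genes passing the same limit (grey). Replicates 1 and 5 of pKO stand highest in both, and replicate 5 is higher among ER genes than among all genes.

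Beyond the 40 members, 140 further genes of the same pathways were analysed, and 14 of them had an unadjusted limma p of at most 0.05, 11 lower and 3 higher in pKO. That is 10%, close to the 9.55% of all genes. There were 0 past the adjusted threshold by limma, limma-voom, edgeR or DESeq2. Of the 19 UPR regulators, 3 were lower: Mbtps2 (site-2 protease, which releases ATF6, log2 difference -0.66), Traf2 (an adaptor of IRE1, -0.52) and Creb3 (a membrane-bound transcription factor, -0.38). Of 37 folding genes, 3 were lower and 1 higher, the lower ones being Fkbp2 (-0.57), Cnpy4 (-0.48) and Mcfd2 (-0.28). Of 20 ERAD genes, 1 was lower, Erlec1 (-0.24), and 2 were higher, among them H47 (selenoprotein S, 0.32). Erlec1 and H47 were the only ones of the 140 whose groups did not overlap, 1 in each direction, where 0.673% of all genes lay wholly below and 0.569% wholly above. Of 28 genes of translocation and glycosylation, 3 were lower, among them Sec11c of the signal peptidase (-0.49). Of 36 targets of ATF4 and the integrated stress response, 1 was lower, Atf3 (-0.92), and none was higher, with a median log2 difference of 0.02. Atf3 was low, at 38.6 to 87.8 normalized tags in WT mice and 14.2 to 83.7 in pKO mice. Its groups overlapped, and its exact permutation p was 0.0693.

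Some cell type markers passed the unadjusted limma threshold, a rule by which 5.35% of all genes were lower and 4.2% higher. No marker passed the adjusted threshold, and the smallest adjusted limma p among them was 0.253. The adipocyte markers, all 9 of them detected in every mouse, had 2 higher at the unadjusted limma threshold (Pnpla2 and Slc2a4). By sign, 7 of the 9 were higher and 2 lower. Their summed level in normalized tags ran from 688390 to 1100900 among WT mice and from 740620 to 1121600 among pKO mice. Most of that sum was Fabp4, with a mean of 655818 in WT and 698530 in pKO mice. Macrophage markers had 3 of 9 lower (Itgam, Itgax and Trem2), with sums of 4232 to 6503 in WT and 3772 to 5205 in pKO mice. By sign, 8 of these 9 were lower and 1 higher. Mesothelial markers had 3 of 5 higher, with sums of 995 to 1349 and 1331 to 2394, and fibroblast markers 1 of 6 higher (Dcn), with sums of 43653 to 52693 and 53916 to 58521. The fibroblast sums do not overlap, but 3 of the 6 markers were higher and 3 lower by sign, with a median log2 difference of 0.05, and Dcn alone went from a mean of 21572 to 27841. Endothelial markers had 1 of 5 higher and T cell markers 1 of 6 lower, B and plasma cell markers 0 of 7 by the same test, and the 1 epididymis gene analysed, Rnase10, was at no more than 10.6 in any mouse. Cd3g, Ms4a1 and Rnase10 were listed at 0 in at least 1 mouse. P4hb and Calr are made by many of these cell types, and the part of the cell makeup in their lower values was not tested.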

How the data were processed

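SAGE tags were sequenced on a SOLiD instrument, aligned by the authors with a modified SOLiD SAGE analysis pipeline (build mm10, edgeR 3.2.3 per the submitters' processing notes), and counted per gene. The annotation and gene filter are not given in the sources used here. The deposited signal values are tags scaled by the authors with 1 factor per library: 100% of values were whole tags within 0.01 once divided by the value of 1 tag, and a count test was run on those tags as an alternative. Mice were grouped by the genotype in the labels, each library being 1 mouse, and all 25 pairs of libraries within a genotype differed by more than sampling noise.

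log2(value + 1) was tested over all 15453 genes with limma 3.58.1 (R 4.3.3), pKO minus WT, with a mean-variance trend and Benjamini-Hochberg adjustment, and calls used an unadjusted p of 0.05 or an adjusted p of 0.1. Fold changes are on this scale, which understates low genes. Single genes also got a two-sided exact permutation test over 462 assignments of mice to groups. edgeR 4.0.16 and DESeq2 1.42.0 served as alternatives, and the scripts were tested on simulated data. Members and lists were chosen with earlier results of these data known. Each mouse's values are given for the main UPR genes, every member with an unadjusted p of at most 0.05, the 3 members with the largest WT variation, and Mest, and up to 10 other pathway genes of smallest p are named. Erlec1 was named after its values were seen. The values of 1 gene that this rule names are not reported here. Same-numbered mice did not deviate together (mean r of -0.0207 over 5 pairs, against 0.00387 over 25 pairs of different number). So few pairs cannot exclude a pairing, but the labels name none, and the numbers were not used to pair the mice. RefSeq positions and promoters are of GRCm38.p6, the same assembly as mm10.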

Additional observations from a re-analysis of the deposited data

Results flagged for a closer look

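A mouse was flagged where its gap to the nearest other mouse of its genotype, divided by the range of that genotype, passed Dixon's 95% critical value. Of 82 groups examined (40 members and Mest in each genotype), 4 were flagged, and chance flags about 1 in 20 groups, or 4.1 here. WT replicate 1 was the highest WT mouse for Hspa5, at 12303 normalized tags. WT replicate 2 was the lowest WT mouse for Atf4, at 132. Replicate 1 of pKO was the lowest of its genotype for P4hb, at 2316, and for Ssr2, at 107. Without that mouse P4hb remained lower in pKO at an unadjusted limma p of at most 0.05.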

How the results depend on the processing

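Alternatives were another scaling (total count, TMM), pseudocounts of 0.5 and 10, filters on tags (10 or more in all libraries) or on the mean (50 or more in either genotype), limma without the trend or with robust estimation, limma-voom, edgeR, DESeq2, a replicate block, and each mouse left out. Leaving out pKO replicates 1 and 5 together was chosen after seeing the data. Mest kept its fall in all of them (-4.13 to -3.75 with 1 mouse left out). The members lower in pKO were 3, and 7 with total-count scaling, where 6.57% of all genes were lower by the same fit. With 1 mouse left out, the members lower were 2 to 7. Members higher were 0 to 1 with 1 mouse left out and 1 without pKO replicates 1 and 5. By the same fits, 453 to 843 of 15453 genes were higher with 1 mouse left out, and 546 without pKO replicates 1 and 5. Members past the adjusted threshold were 1 with DESeq2 and 0 to 1 with 1 mouse left out, the 1 (Calr) coming without pKO replicate 2. The median log2 difference of the members was -0.15 with total-count scaling, which moved the median of all genes to -0.04, and -0.142 to -0.0745 with 1 mouse left out. Genes lower at an adjusted p of 0.1 over the whole table were 4, and 9 with the tag filter, 8 with the mean filter, 8 without the trend, 75 with DESeq2, 1 without pKO replicates 1 and 5, and 2 to 78 with 1 mouse left out, the 78 without pKO replicate 2. Genes higher were 1, and 3 with the tag filter, 3 without the trend, 63 with DESeq2, 0 without pKO replicates 1 and 5, and 1 to 28 with 1 mouse left out. Members that covaried with Hspa5 at an unadjusted permutation p of at most 0.05 were 1 of 39, and 5 with total-count scaling. No share over all genes was computed for these counts. The cause of these changes was not tested.

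The replicate block, which leaves out WT replicate 6, gave 4 members lower and 0 higher by the unadjusted rule. By that rule 698 of 15453 genes (4.52%) were lower and 521 higher. At an adjusted p of 0.1, 1 gene was lower and 0 higher over the whole table. The labels do not say that the numbers pair the mice, so these values are only a check. Single named members kept their direction and side of the unadjusted threshold in 382 of 428 fits, 9 lost the call (all Pdia3), 14 gained it (Chac1 and Asns) and 23 turned direction, none of them past the threshold. With 1 mouse left out, log2 differences ran from -0.184 to 0.00823 for Hsp90b1, from -0.363 to 0.0342 for Dnajb9, from -0.446 to 0.112 for Herpud1, from -0.000888 to 0.158 for Xbp1, from -0.143 to 0.122 for Atf4, from -0.477 to 0.00904 for Ddit3, from -0.443 to 0.0211 for Trib3 and from -0.0835 to 0.241 for Ppp1r15a. Without pKO replicates 1 and 5 they were 0.018 for Eif2ak3, 0.0901 for Atf4 and 0.0366 for Trib3, and with the replicate block 0.00297 for Atf4. The cause was not tested. With 6 against 5 mice, the 95% interval sets which differences of a gene could be seen.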

Other observations

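Covariation with Hspa5 was examined among the 6 WT mice for the other 39 members. Pearson's r was positive for 29 of them. Genes outside the members were not correlated with Hspa5, so no share over all genes stands beside this count. Calr had the smallest permutation p, with r = 0.932 (exact permutation p = 0.0375, adjusted p = 0.66) and Spearman's rho = 0.771 (exact permutation p = 0.103). Without the 2 mice farthest from the median of Hspa5, r was 0.188. The mice left lay between 11036 and 11228 normalized tags of Hspa5. That range is too narrow for this r to decide what carries the correlation. WT replicate 1 held the highest value of both genes.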
